A study of Papio anubis with 12 samples.

Results

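The uncoupling proteins UCP1, UCP2, UCP3, SLC25A14 (UCP5) and SLC25A27 (UCP4), together with the ADP/ATP carriers SLC25A4 (ANT1) and SLC25A5 (ANT2), were followed in the cerebral cortex of baboon neonates fed 3 formulas. A probe set, the group of oligonucleotides that reports 1 transcript region on the array, was taken as a member when the platform annotation gave it exactly 1 gene symbol and that symbol was 1 of these 7 genes. This gave 15 probe sets among the 54613 that were tested and the 41091 with a single symbol, which cover 19775 genes. All 7 genes are listed in the RefSeq annotation of the baboon genome, where UCP2 and UCP3 lie on the same chromosome with 1 gene between them.

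Tissue of the precentral gyrus, the primary motor cortex, was hybridised to human oligonucleotide arrays, with 4 animals on each formula. For 1 control array, C replicate 2, the label named brain tissue but not the gyrus, so the UCP2 values are also given without it. Animals were born at about 182 days of gestation and received their formula for 12 weeks. Formula C held neither docosahexaenoic acid (DHA) nor arachidonic acid (ARA), the long-chain polyunsaturated fatty acids of breast milk. In formula L the DHA content was 0.33% and the ARA content 0.67%. In formula L3 the DHA content was 1.00%, at the same ARA content. The comparisons L/C and L3/C therefore ask what adding both fatty acids did, and L3/L asks what the higher DHA did. The sexes were unequal, with 2 males and 2 females on C, 1 male and 3 females on L, and 4 females on L3. Ages at sampling were 83 to 85 days on C, 84 to 87 days on L and 83 to 84 days on L3. Differences were therefore also computed with a sex covariate and with females only.

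The proteins share the fold of the mitochondrial solute carrier family and sit in the inner mitochondrial membrane. ADP/ATP carriers bring ADP into the matrix and send out newly made ATP. UCP1 lets protons return to the matrix without ATP synthesis, which releases heat in brown fat, and fatty acids activate this leak. UCP2 is found in many tissues, microglia and other immune cells among them, UCP3 mainly in muscle, and SLC25A14 and SLC25A27 mainly in brain. What the last 4 carry, and how far they uncouple respiration in living tissue, is less settled.

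UCP2 was the member that the study carried into real-time PCR. Its designed primers are shown because they define the piece of the transcript that was assayed beside the arrays. Each has 20 bases, of which 50.0% are G or C. No base is set in capitals, since no motif is at issue. The PCR readings themselves were not used here.
UCP2 forward primer, 5′ to 3′: agcaccgtcaatgcctacaa
UCP2 reverse primer, 5′ to 3′: aggcagaagtgaagtggcaa

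The deposited values are MAS5 signals, a linear brightness per probe set, scaled so that the trimmed mean of every array was close to 250. Median signals ran from 109 to 174 over the 12 arrays, and any pair of arrays correlated at 0.68 to 0.91 on the log2 scale. Neuronal markers were bright, with SNAP25, a synaptic vesicle fusion protein, at a mean signal of 23210 ± 3495 on C, 20589 ± 3035 on L and 24141 ± 8221 on L3 (SD, n = 4). RNA integrity varied widely. The log2 ratio of the 3′ to the 5′ control probe set of ACTB ran from -0.03 to 3.59 on C, from -0.15 to 3.45 on L and from 0.17 to 6.18 on L3. The hybridisation controls spiked into each sample had a mean log2 signal of 12.0 ± 0.66 on C, 11.7 ± 0.98 on L and 12.7 ± 1.31 on L3 (SD, n = 4; exact permutation test, two-sided, p = 0.4 for L3/C). The L3 arrays were uneven, at 12.98, 13.43, 13.72 and 10.83 for replicates 1 to 4. Levels of different probe sets were not ranked against each other, since each has its own affinity for the baboon transcript, and only the change of a ratio between arrays was compared. In tissue, fewer cells of a type and less RNA per cell cannot be told apart.

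Differences between formulas are given as log2 differences of quantile normalized log2 (signal + 16), which understates the change of dim probe sets, with the standard error (SE) from limma over all 12 arrays. No member passed a threshold in any comparison. Of the 15 probe sets, 0 had an adjusted p under 0.05 and 0 reached an unadjusted p under 0.05 in L/C, L3/C or L3/L by limma. Over all probe sets, 0.00% passed the adjusted threshold in each comparison. An unadjusted p under 0.05 was found for 2.42% of all probe sets in L/C, 4.26% in L3/C and 5.40% in L3/L. By the limma F test over the 3 formulas 0 members had an unadjusted p under 0.05, beside 3.67% of all probe sets. The 4 signals of a formula were fully above or below the 4 of another for 0 members in any comparison, beside 1.57% of all probe sets in L/C, 2.00% in L3/C and 2.57% in L3/L.

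UCP2 was read by 2 probe sets, and they gave different orders of the formulas. The set that the study lists, 208998_at, read 244, 77.7, 119 and 461 on C, then 160, 320, 237 and 175 on L, then 387, 212, 534 and 328 on L3, in the order of replicates 1 to 4. Every L3 array was above the median of the C arrays, and 1 L3 array was above all of C. Mean signals were 225.5 ± 172 on C, 223 ± 72.6 on L and 365 ± 134 on L3 (SD, n = 4). The log2 difference was 0.23 in L/C (SE 0.51, limma unadjusted p = 0.654, 95% interval -0.85 to 1.32). It was 0.81 in L3/C (SE 0.51, limma unadjusted p = 0.136, adjusted p = 0.999), with an interval of -0.28 to 1.89. It was 0.57 in L3/L (SE 0.51, limma unadjusted p = 0.283). Exact two-sided permutation tests of 4 against 4 arrays, which cannot go below 0.0286, gave p = 0.743 for L/C, 0.286 for L3/C and 0.257 for L3/L. The study chose this probe set on these same arrays, so its direction is no independent evidence.

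The L3/C value of 208998_at moved with the control arrays that entered and with how sex was treated. It was 0.37 without C replicate 2, the array with the lowest signal and the one whose label does not name the gyrus, and 1.22 without C replicate 4, the array with the highest signal among the controls (limma unadjusted p = 0.0291). The L/C value turned to -0.20 without C replicate 2. With sex as a covariate L3/C was 1.44 (limma unadjusted p = 0.0111), and among females alone it was 1.59 (limma unadjusted p = 0.0156). The females on C were only replicates 2 and 3, at 77.7 and 119. The females-only value therefore rests on 2 controls, 1 of them C replicate 2, and the influences of sex and of that array cannot be told apart. Both males on C were brighter than both females on C, and no L3 animal was male. None of these values passed the adjusted threshold.

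The other UCP2 probe set, 208997_s_at, had its highest mean on L. It read 678, 130, 397 and 410 on C, then 445, 616, 603 and 790 on L, then 166, 345, 93.5 and 817 on L3. All 4 L arrays were above the median of C. The L3 arrays spanned both ends, with 1 above and 1 below all C arrays. Mean signals were 404 ± 224 on C, 614 ± 141 on L and 355.5 ± 325 on L3 (SD, n = 4). The log2 difference was 0.70 in L/C (SE 0.59, limma unadjusted p = 0.253, 95% interval -0.55 to 1.95). In L3/C it was -0.51 (SE 0.59, limma unadjusted p = 0.397, 95% interval -1.76 to 0.74). In L3/L it was -1.21 (SE 0.59, limma unadjusted p = 0.0564, adjusted p = 0.891, 95% interval -2.46 to 0.04), the only one of the 45 member differences beyond 2-fold. The exact two-sided permutation test gave p = 0.286 for L/C, 0.6 for L3/C and 0.2 for L3/L. C replicate 2, whose label does not name the gyrus, was the dimmest C array here too, and without it L/C fell to 0.19 (SE 0.55) and L3/C was -1.02 (SE 0.55). Without it the L3/L value stayed at -1.21 (limma unadjusted p = 0.0321, adjusted p = 0.858). Without L3 replicate 4, L3/L was -1.76 (limma unadjusted p = 0.00567, adjusted p = 0.370) and L3/C was -1.06. Leaving out L3 replicate 4 also raised the number of calls over all 54613 probe sets. Those with an unadjusted p under 0.05 went from 2949 to 5435 in L3/L and from 2329 to 4314 in L3/C. Without L3 replicate 3, L3/L was -0.74 and L3/C was -0.04. Among females alone, where C held only replicates 2 and 3, L3/C turned to 0.11.

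**Figure D1:**
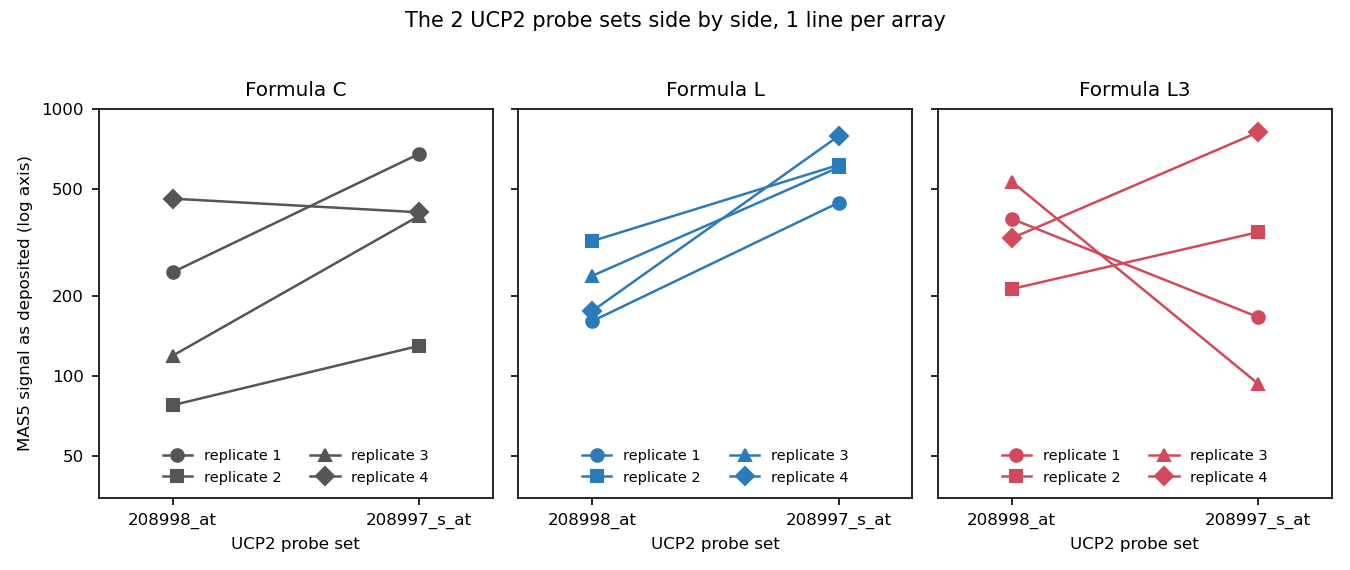
MAS5 signals as deposited (log axis) of the 2 UCP2 probe sets, 208998_at and 208997_s_at, with 1 line per array and 1 panel per formula. The lines of all 4 L arrays and of 3 of 4 C arrays run upward, while in L3 the lines of replicates 1 and 3 run downward.

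Set side by side within arrays, the 2 UCP2 probe sets had a ratio that varied between arrays. The ratio of the 208998_at signal to the 208997_s_at signal was 2.33 in L3 replicate 1 and 5.71 in L3 replicate 3, against 1.12 in C replicate 4 and 0.22 to 0.61 in the other 9. The plot of the paired signals shows these crossing lines. On the log2 scale the first set minus the second was -0.84 ± 0.76 on C, -1.31 ± 0.46 on L and 0.48 ± 1.74 on L3 (SD, n = 4). This quantity was 1.32 higher on L3 than on C (exact permutation test, two-sided, p = 0.229, 0.343 after Benjamini-Hochberg adjustment over the 3 comparisons). It was 1.78 higher on L3 than on L (exact permutation p = 0.0857, adjusted 0.257). It was 0.47 lower on L than on C (exact permutation p = 0.343). Without C replicate 2 the L3/C value was 1.39. Leaving out L3 replicate 3 brought the L3/C value to 0.62 and the L3/L value to 1.09. The comparison within arrays was chosen after the values had been seen.

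Across the 12 arrays the 2 UCP2 probe sets showed no detectable relation. Pearson's r was 0.03 (permutation p = 0.912) and Spearman's rho was -0.01 (permutation p = 0.974), r was -0.08 without the 2 arrays farthest from the median, and r of the deviations from the group means was 0.22. Among 14 such pairs of probe sets of 1 gene, r ran from -0.51 to 0.43, 8 were positive, and 0 had an adjusted permutation p under 0.05. The probe sets of 1 gene share arrays and, in part, the target transcript.

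**Figure D2:**
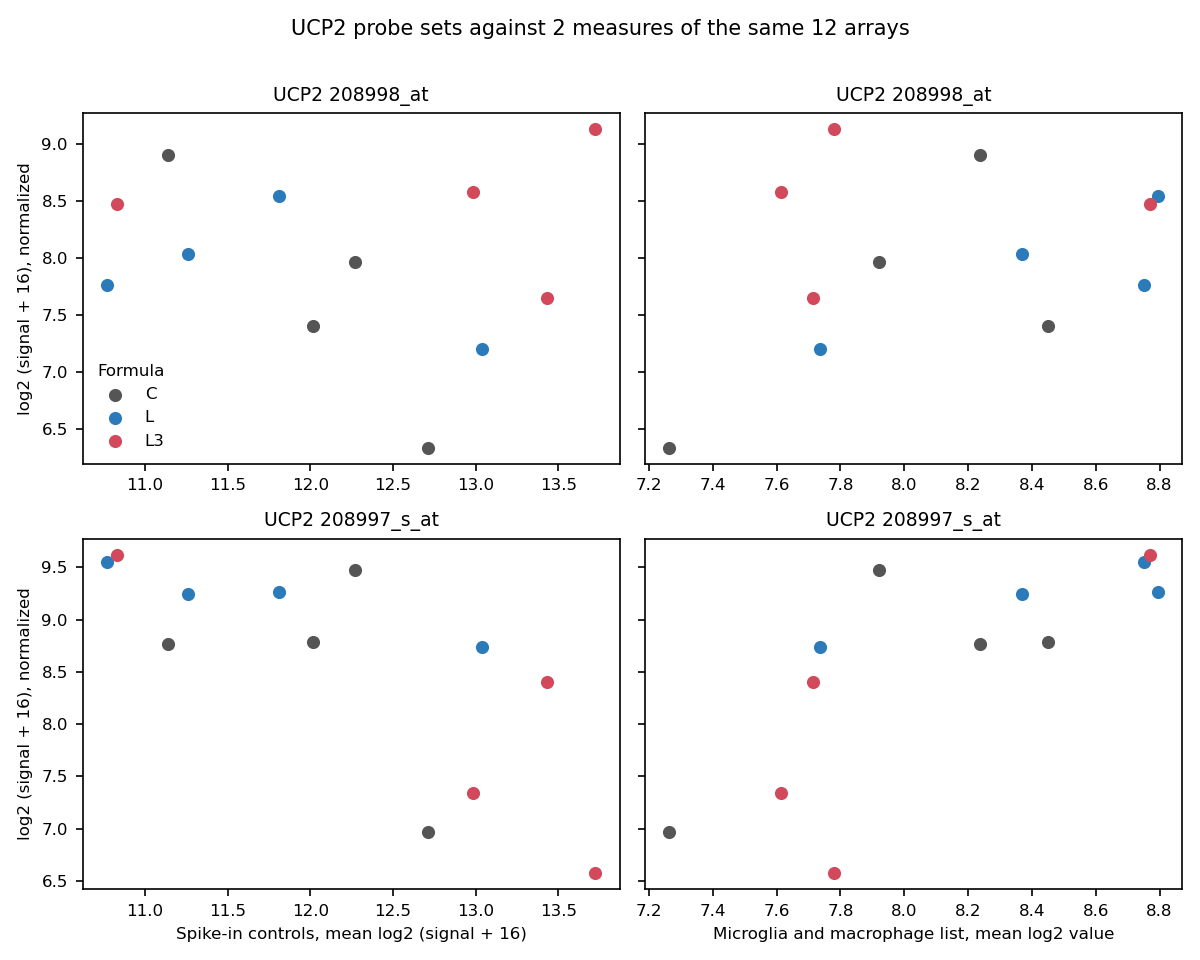
Normalized log2 (signal + 16) of the 2 UCP2 probe sets against the mean log2 signal of the spike-in controls (left) and the mean log2 value of 11 microglia and macrophage markers (right), with 1 point per array (12 arrays) coloured by formula. Set 208997_s_at falls with the spike-in controls and rises with the marker list, with r of -0.75 and 0.76, while 208998_at has r of -0.13 and 0.37.

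Set 208997_s_at was related to the spike-in controls and to the marker mean, and 208998_at did not pass the same tests. Against the ACTB 3′/5′ ratio neither set passed. There r was -0.47 for 208997_s_at (permutation p = 0.127, adjusted 0.452) and -0.14 for 208998_at (permutation p = 0.654). Over 32 relations between members and array measures, 4 had an adjusted p under 0.05 for Pearson's r. Against the spike-in controls 208997_s_at had r of -0.75 and rho of -0.81 (permutation p = 0.00504 and 0.00244, adjusted 0.0422 and 0.0230). This r was -0.61 without the 2 farthest arrays and -0.69 for deviations from the group means. Against the mean of the microglia and macrophage markers it had r of 0.76 and rho of 0.82 (permutation p = 0.00318 and 0.00203, adjusted 0.0422 and 0.0230). This r was 0.68 without the 2 farthest arrays and 0.73 for deviations from the group means. Each formula has 4 arrays, too few for an r within 1 formula. The marker list and the spike-in controls were themselves related (r of -0.80 and rho of -0.75, permutation p = 0.00261 and 0.00739), so their relations with 208997_s_at cannot be told apart. For 208998_at, r was -0.13 with the spike-in controls and 0.37 with the markers (permutation p = 0.682 and 0.243). Its r with the spike-in controls was -0.53 without the 2 farthest arrays and -0.37 for deviations from the group means. With the markers these values were -0.06 and 0.51. The difference between the 2 sets in these relations was not tested.

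Of the microglia and macrophage markers 11 of 12 were measured. Their mean log2 value ran from 7.26 to 8.45 on C, 7.74 to 8.79 on L and 7.61 to 8.77 on L3, and their summed signal from 2846 to 6218, from 3434 to 8482 and from 3403 to 6315. In L/C 1 of 11 had an unadjusted p under 0.05, the complement subunit C1QB, with a log2 difference of 2.00 (SE 0.60, limma unadjusted p = 0.0039). The integrin ITGAM was at 1.07 (SE 0.64). In L3/C 0 of 11 did, with C1QB at 0.89 (SE 0.60) and the lipopolysaccharide co-receptor CD14 at -0.92 (SE 0.65). The median over the list was 0.19 for L/C and -0.06 for L3/C. In L3/L, where 208997_s_at was at -1.21, 2 of the 11 were above 0 and 9 below, with a median of -0.37. There 1 of 11 had an unadjusted p under 0.05, the microglial calcium-binding protein AIF1, at -1.41 (SE 0.63, limma unadjusted p = 0.039, adjusted p = 0.891), and C1QB was at -1.12 (SE 0.60). Over all probe sets the share with an unadjusted p under 0.05 was 2.42% in L/C, 4.26% in L3/C and 5.40% in L3/L. In L3/L 50.5% of all probe sets were above 0. Other marker lists had L3/L medians of -0.21 for neurons, -0.21 for oligodendrocytes, -0.26 for muscle and -0.21 for adipocytes. Medians were above 0 for astrocytes (0.40), endothelium (0.07), meninges and fibroblasts (0.49) and blood (0.34). With each array centred, L3/L medians were -0.49 for microglia and macrophages, -0.62 for neurons and -0.55 for oligodendrocytes. The L3/L genes were named after their values had been seen. Their part in the UCP2 values was not tested.

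As a description, the single-symbol probe sets with the highest Pearson's r to 208998_at over the 12 arrays, among 41090 others, were MTHFD2L at 0.90, PON2 at 0.89 and AIFM3 at 0.88. For 208997_s_at they were ZNF248 at 0.97, PASK at 0.95 and PTTG1 at 0.95. That the 2 lists of 3 genes share no gene follows from the r of 0.03 between the 2 sets and adds nothing to it.

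SLC25A14 and SLC25A27, the members known mainly from brain, did not differ between formulas beyond the spread of the arrays. SLC25A14 204587_at had mean signals of 634 ± 271 on C, 794 ± 341 on L and 668 ± 85.4 on L3 (SD, n = 4), with log2 differences of 0.21 (SE 0.32) for L/C and 0.24 (SE 0.32) for L3/C. The other SLC25A14 set, 211855_s_at, read 127, 78.5, 206 and 322 on C, then 31.5, 265, 195 and 294 on L, then 104, 98.4, 32.3 and 154 on L3. Every L3 array was below the median of C, though the groups overlapped. Its log2 difference was -0.03 in L/C (SE 0.70) and -0.86 in L3/C (SE 0.70, limma unadjusted p = 0.238, 95% interval -2.33 to 0.62). The L/C value was 0.68 without L replicate 1, the dimmest array of this set. Like the second UCP2 set, it fell as the spike-in controls rose (r of -0.83 and rho of -0.85, permutation p = 0.00114 and 0.00086, adjusted 0.0365 and 0.0230). That r was -0.74 without the 2 farthest arrays and -0.81 for deviations from the group means.

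SLC25A27 was read by 5 probe sets, and none of them separated the formulas. Set 230624_at read 715, 567, 550 and 496 on C, then 496, 657, 712 and 632 on L, then 734, 854, 641 and 581 on L3. All 4 L3 arrays were above the median of C and 2 of them were above every C array. Its log2 difference was 0.02 in L/C (SE 0.26) and 0.32 in L3/C (SE 0.26, limma unadjusted p = 0.234, 95% interval -0.23 to 0.86). The exact permutation test for L3/C gave p = 0.171. The other 4 sets had array signals from 6.7 to 364, and their log2 differences ran from 0.26 to 0.48 in L/C and from -0.41 to 0.13 in L3/C. Set 1552774_a_at had the largest of these differences, 0.48 (SE 0.69) for L/C and -0.41 (SE 0.69) for L3/C. It fell as the ACTB 3′/5′ ratio rose (r of -0.74 and rho of -0.80, permutation p = 0.00527 and 0.00287, adjusted 0.0422 and 0.0230). The r was -0.82 without the 2 farthest arrays and -0.70 for deviations from the group means.

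UCP1, the brown fat form, gave a low signal on every array. Its set 221384_at read 36, 27.3, 24.9 and 8.8 on C, then 37.4, 13.9, 49.6 and 27.4 on L, then 35.8, 13, 48.2 and 21.8 on L3. The log2 difference was 0.27 in L/C (SE 0.35, limma unadjusted p = 0.446) and 0.10 in L3/C (SE 0.35, limma unadjusted p = 0.78). The 95% intervals were -0.47 to 1.01 and -0.64 to 0.84, so a difference was not detectable with these arrays.

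UCP3 was read by 2 probe sets. Set 207349_s_at read 45.4, 278, 151 and 166.5 on C, then 631, 79, 123 and 107 on L, then 72, 236.5, 137 and 196 on L3. A single array, L replicate 1, was more than 2-fold above every other. The log2 difference was 0.35 in L/C (SE 0.64, limma unadjusted p = 0.59) and -0.07 in L3/C (SE 0.64, limma unadjusted p = 0.919). Without L replicate 1 the L/C value turned to -0.24, and without C replicate 1 the L3/C value was -0.56. Set 219827_at read 90.5, 279, 100 and 57.2 on C, then 354, 146, 131 and 104 on L, then 168, 49.2, 181 and 257 on L3. Here too L replicate 1 was the brightest array, and all 4 L arrays were above the median of C. The log2 difference was 0.55 in L/C (SE 0.54, limma unadjusted p = 0.326) and 0.19 in L3/C (SE 0.54, limma unadjusted p = 0.736). The 2 sets had r of 0.41 over the arrays.

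Markers of the tissues in which UCP1 and UCP3 are best known were measured for the same arrays. Of 8 skeletal muscle markers, with a mean log2 value of 7.22 to 8.16 on C, 7.80 to 8.09 on L and 7.67 to 7.87 on L3, the muscle creatine kinase CKM reached an unadjusted p under 0.05 in L/C, at 1.32 (SE 0.52, limma unadjusted p = 0.0218), and myoglobin (MB) was at 1.14 (SE 0.61). In L3/C 0 did, with troponin TNNT3 at -0.69 (SE 0.39) and MB at 0.78 (SE 0.61). Of 7 adipocyte markers, with a mean of 6.62 to 7.07 on C, 6.62 to 7.17 on L and 6.32 to 6.95 on L3, the lipid droplet protein CIDEA was at 1.36 in L/C (SE 0.56, limma unadjusted p = 0.0272) and leptin (LEP) at -1.03 (SE 0.49). In L3/C 0 passed, with FABP4 at -0.81 (SE 0.54) and ADIPOQ at 0.61 (SE 0.51). Their part in the UCP1 and UCP3 values was not tested.

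The ADP/ATP carriers did not differ between formulas beyond the spread of the arrays. SLC25A5, the form of proliferating and many other cells, had mean signals of 5146 ± 2247 on C, 4709 ± 1633 on L and 4343 ± 1068 on L3 (SD, n = 4). Its array signals ran from 2941 to 7976 on C, from 2726 to 6462 on L and from 3166 to 5714 on L3, with wide overlap. The log2 difference was -0.05 in L/C (SE 0.16, limma unadjusted p = 0.757, 95% interval -0.39 to 0.29) and 0.12 in L3/C (SE 0.16, limma unadjusted p = 0.465, 95% interval -0.22 to 0.46). These were the narrowest intervals among the members. The L3/C direction rested on the scaling, since it was -0.17 on the deposited signals as they stand and -0.34 after subtracting each array's median.

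SLC25A4, the form of heart, muscle and brain, was read by 2 probe sets. Set 202825_at read 1545, 1077, 2257 and 1898 on C, then 474, 2127, 1744 and 1772 on L, then 920, 1752, 1117 and 1800 on L3. L replicate 1 was the dimmest of the 12 arrays, while the other 3 L arrays lay within the range of C. The log2 difference was -0.42 in L/C (SE 0.35, limma unadjusted p = 0.25), and it was 0.03 without L replicate 1. In L3/C it was -0.10 (SE 0.35, limma unadjusted p = 0.781). Set 214821_at had mean signals of 406 ± 128 on C, 422 ± 52.4 on L and 461 ± 198 on L3 (SD, n = 4). Its log2 differences were 0.14 in L/C (SE 0.36) and 0.18 for L3/C (SE 0.36), and L replicate 1, at 443.5, lay among the other arrays of L.

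**Figure D3:**
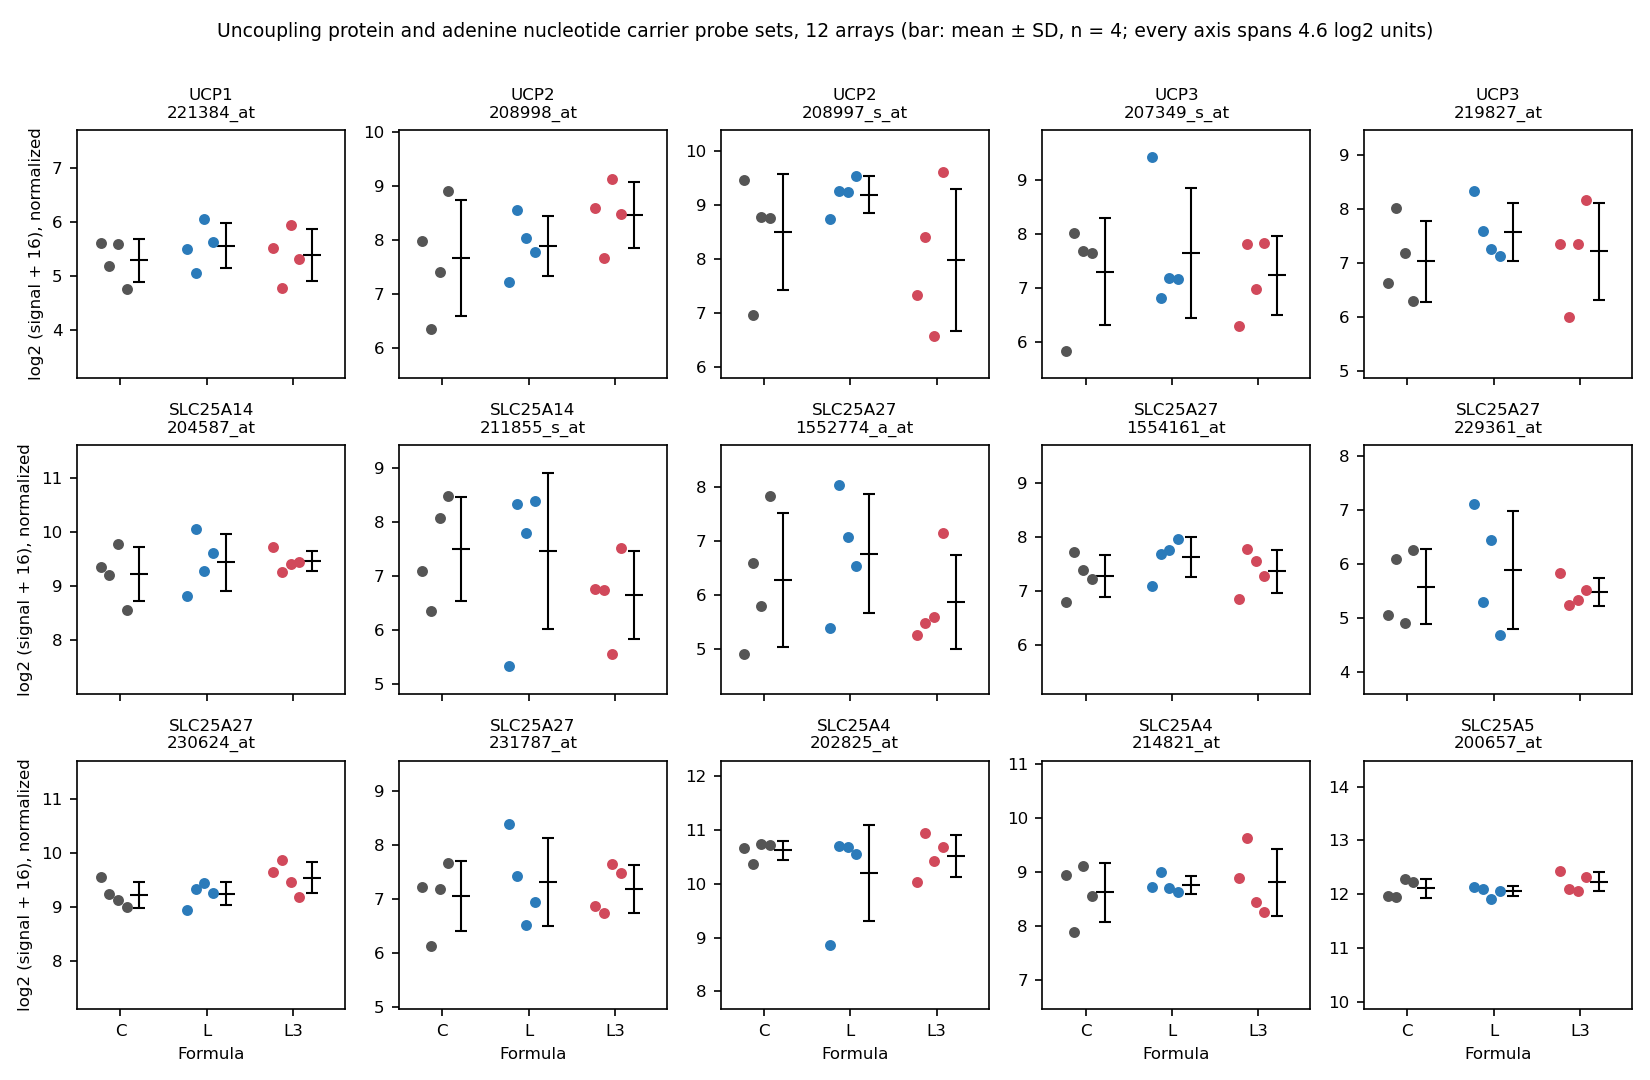
Normalized log2 (signal + 16) of the 15 member probe sets in the 12 arrays by formula, with 1 point per array and the mean ± SD of 4 arrays beside it. The formulas overlap in every panel, and L replicate 1 stands alone in UCP3 207349_s_at, where it is high, and in SLC25A4 202825_at, where it is low.

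**Figure D4:**
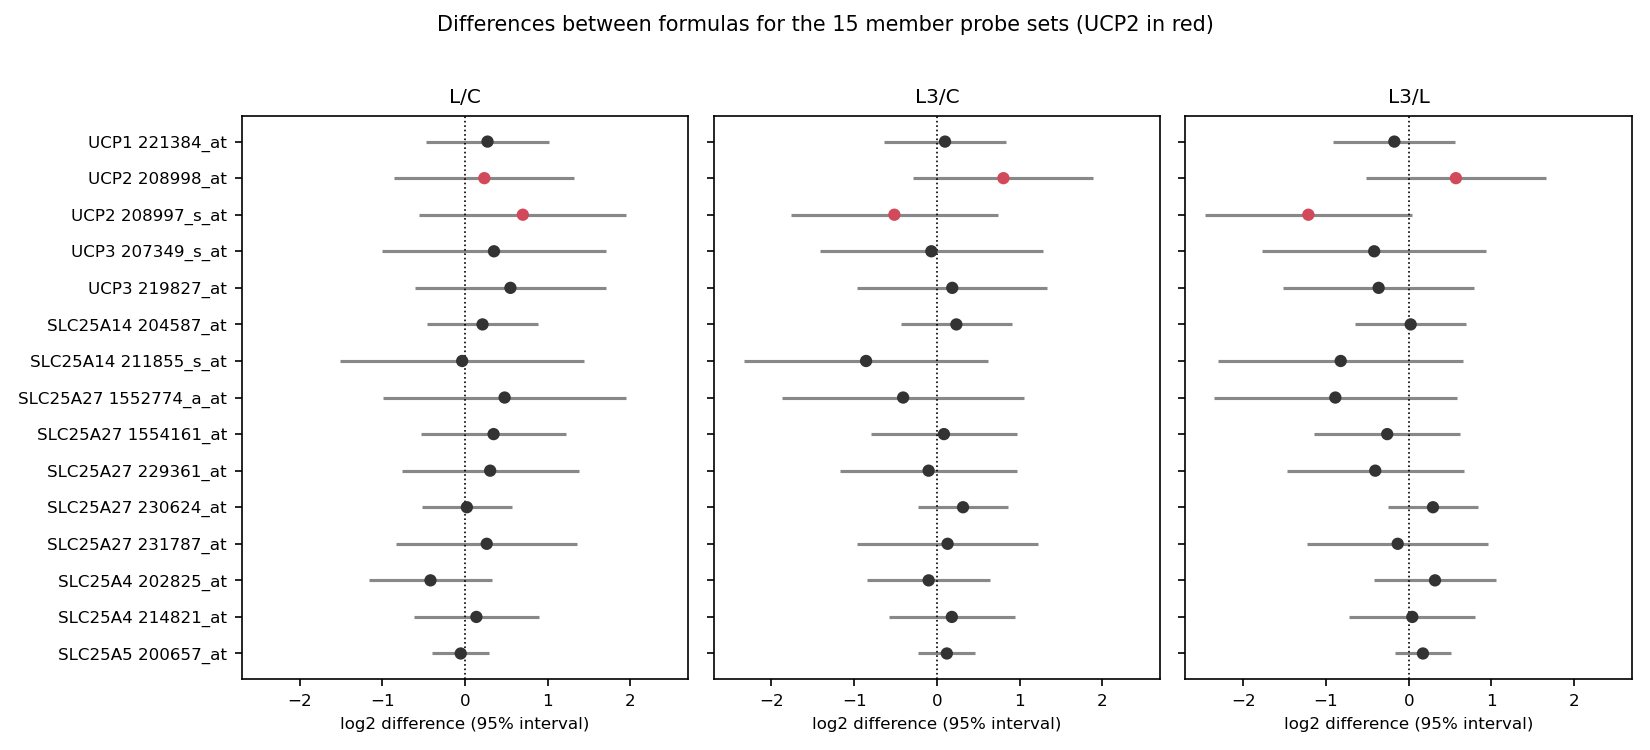
Log2 differences of the 15 member probe sets with 95% intervals from limma in L/C, L3/C and L3/L, with the 2 UCP2 sets in red. All 45 intervals span 0, and the UCP2 sets lie on opposite sides of 0 in L3/C and L3/L.

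Counted over the members, 12 sets were above 0 and 3 below in L/C. For L3/C the counts were 9 above and 6 below, and for L3/L they were 6 above and 9 below. L/C and L3/C share the C arrays. The median log2 difference of the members was 0.26 in L/C, 0.10 in L3/C and -0.17 in L3/L, beside -0.01, -0.00072 and 0.01 over all probe sets. The median size without its sign was 0.27, 0.18 and 0.32, beside 0.28, 0.32 and 0.35 over all. When each array was centred, the median of all probe sets moved to -0.12 in L3/C and -0.13 in L3/L, and that of the members to -0.03 and -0.28.

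Relatives and partners of the members were also examined. Of 10 other adenine nucleotide and uncoupling protein-like carriers 9 were measured. Over all probe sets an unadjusted p under 0.05 was found in the higher direction for 1.15% and in the lower direction for 1.27% in L/C, and for 2.22% and 2.04% in L3/C. In L/C 0 had an unadjusted p under 0.05 in the higher direction and 1 in the lower, SLC25A31 (ANT4, the form of testis), at -1.05 (SE 0.47, limma unadjusted p = 0.0407). SLC25A24, an ATP-Mg/phosphate carrier, was at -0.72 (SE 0.48). In L3/C 1 was higher, SLC25A43 at 1.14 (SE 0.38, limma unadjusted p = 0.0083), and 1 was lower, SLC25A25, another ATP-Mg/phosphate carrier, at -0.86 (SE 0.38, limma unadjusted p = 0.0377). Mean signals of SLC25A43 were 11.2 ± 1.6 on C, 14.3 ± 4.1 on L and 58.3 ± 40.5 on L3 (SD). The C and L means lay below the constant added to every signal before the log2 step, and the L3 arrays varied widely. The list had a median of -0.08 for L/C and -0.18 for L3/C. None of these had an adjusted p under 0.05.

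Of 30 other mitochondrial carriers 29 were measured, and 1 reached an unadjusted p under 0.05 in L/C, the iron carrier SLC25A28 (mitoferrin 2), at -0.78 (SE 0.34, limma unadjusted p = 0.0376). MTCH2 was at 0.41 (SE 0.23). In L3/C 0 did, with the S-adenosylmethionine carrier SLC25A26 at -0.69 (SE 0.40) and the phosphate carrier SLC25A3 at -0.32 (SE 0.19). The medians were -0.02 and -0.09, and the L/C median turned to 0.02 with centring.

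Of 15 partners of ADP/ATP exchange 12 were measured, and 0 reached an unadjusted p under 0.05 in L/C or L3/C. TSPO, an outer membrane protein raised in activated microglia, was at 0.79 (SE 0.50) and PPIF, which regulates the permeability transition, at -0.35 (SE 0.55) in L/C. The hexokinases HK2 and HK1 were at -1.34 (SE 0.73) and -0.31 (SE 0.20) in L3/C. The medians were -0.06 and -0.05.

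All 18 transcriptional regulators of uncoupling proteins were measured, among them the fatty acid and thyroid hormone receptors, and 0 reached an unadjusted p under 0.05 in L/C or L3/C. The thyroid hormone receptors THRA and THRB were at -0.36 (SE 0.21) and 0.32 (SE 0.23) in L/C. RXRG, a retinoid X receptor, was at -1.07 (SE 0.58) and the deacetylase SIRT3 at 0.38 (SE 0.32) in L3/C. The medians were 0.03 and 0.09, and the L3/C median turned to -0.02 without further normalization and to -0.20 with centring.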

How the data were processed

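Per the labels, the authors hybridised RNA of baboon cortex to human genome arrays, and the deposited intensity values are MAS5 signals scaled per array. The study's methods describe RMA values, which these linear signals are not. The methods' multiclass test was run as the limma F test. From the 54675 probe sets 62 control probe sets were left out. The rest were set to log2 (signal + 16), quantile normalized and fitted with limma 3.58.1 in R 4.3.3 (3 group means, 9 residual degrees of freedom, trended variance), with Benjamini-Hochberg adjustment over all 54613. Of these 41091 have 1 symbol, 1801 several and 11721 none. A gene in a list was read by its brightest probe set. Members and lists were chosen with earlier results of these data known. Within each list and in each of L/C and L3/C, the 2 genes with the smallest p were named. Replicates are separate animals, and 4 arrays per formula limit the precision. Permutation tests used scipy 1.17.1, exact for differences and with 100000 permutations for correlations. The scripts' fits were tested on simulated data. Alternatives covered scaling, pseudocount, filter, variance trend, covariates, array weights, replicate block, females only, the 8 arrays compared and each array left out.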

Additional observations from a re-analysis of the deposited data

Results flagged for a closer look

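In 3 of the 48 groups of 4 arrays that were examined, 1 array lay apart from the other 3 by Dixon's ratio, the gap to the nearest array over the whole range, above the critical value of that test. Chance gives about 1 such group in 20. UCP3 207349_s_at was lower in C replicate 1, at 5.83 against 7.66 to 8.02 on the log2 scale, with a ratio of 0.835. UCP3 207349_s_at was higher in L replicate 1, at 9.43 against 6.81 to 7.19, with a ratio of 0.856. SLC25A4 202825_at was lower in L replicate 1, at 8.86 against 10.55 to 10.69, with a ratio of 0.92.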

How the results depend on the processing

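Of 859 values that 35 results took under the alternatives, 793 kept their direction and their side of the threshold and 66, of 24 results, reversed. Part of these values could not reverse. The F test, variance trend, filter, 8 arrays alone and replicate block leave the group differences as they are. So does leaving out an array of the formula not compared. For the UCP2 difference within arrays, the side was judged by the unadjusted exact permutation p. With 1 array left out that p cannot go below 0.0571. The 793 therefore overstates how stable the directions were. No limma value passed the adjusted threshold, and the smallest adjusted p was 0.370. The first UCP2 set, 208998_at, kept its direction in L3/C (0.37 to 1.22 with 1 array left out) and in L3/L (0.34 to 0.84), but ran from -0.20 to 0.65 in L/C. The second, 208997_s_at, ran from 0.19 to 1.03 in L/C, from -1.06 to -0.04 in L3/C and from -1.76 to -0.74 in L3/L, and reversed to 0.11 in L3/C with females only. The count of members at an unadjusted p under 0.05 went from 0 to 1 in L3/C with the sex covariate and with females only, and from 0 to 0 or 1 with 1 array left out, in each case UCP2 208998_at. In L3/L it went from 0 to 1 with centring, with the 8 arrays alone, with the age covariate and with the replicate block, to 2 with array weights, and ran from 0 to 2 with 1 array left out (2 without L replicate 1). It stayed at 0 in L/C. In L3/L UCP2 208997_s_at was counted in each of the settings named. The second member counted with array weights and without L replicate 1 was not a UCP2 set. Over all 54613 probe sets the L3/L count was 2949 in the fit used throughout, 4198 with array weights, 4149 without L replicate 1 and 3826 with the replicate block. It was 2937 with centring, 2496 with the 8 arrays alone and 2748 with the age covariate. For L3/C the count over all was 2329 in the fit used throughout, 1758 with the sex covariate and 1625 with females only.

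Reversed values with females only were -0.022 for UCP3 219827_at and -0.26 for SLC25A14 204587_at in L/C, and -0.0027 for UCP1, -0.38 for UCP3 219827_at, -0.032 for SLC25A14 204587_at and -0.19 for SLC25A27 1554161_at in L3/C. With the sex covariate they were 0.17 for SLC25A14 211855_s_at in L/C, and -0.10 for UCP1, -0.14 for UCP3 219827_at, 0.0097 for SLC25A27 1552774_a_at, -0.053 for SLC25A27 1554161_at and 0.082 for SLC25A4 202825_at in L3/C. With array weights they were -0.11 for UCP3 207349_s_at, 0.20 for SLC25A14 211855_s_at and -0.24 for SLC25A27 231787_at in L/C, and -0.016 for the last in L3/C. With the age covariate they were -0.20 for SLC25A27 1552774_a_at in L/C, and 0.012 for SLC25A27 229361_at, -0.035 for SLC25A27 231787_at and 0.0036 for SLC25A4 202825_at in L3/C. In L3/C, centring gave -0.0022 for UCP1, -0.0096 for SLC25A14 204587_at, -0.030 for SLC25A4 214821_at and -0.34 for SLC25A5, no further normalization gave 0.10 for UCP3 207349_s_at and -0.17 for SLC25A5, the spike-in covariate gave 0.066 for SLC25A27 1552774_a_at and 0.11 for SLC25A4 202825_at, and the RNA quality covariate gave 0.041 for SLC25A4 202825_at. The causes were not tested.

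With 1 array left out, these results also changed sign. In L/C UCP3 207349_s_at ran from -0.24 to 0.63, SLC25A14 204587_at from -0.0085 to 0.42, SLC25A14 211855_s_at from -0.41 to 0.68, SLC25A27 229361_at from -0.10 to 0.71, SLC25A27 230624_at from -0.055 to 0.13, SLC25A27 231787_at from -0.095 to 0.53, SLC25A4 202825_at from -0.58 to 0.029, SLC25A4 214821_at from -0.11 to 0.30 and SLC25A5 from -0.10 to 0.0079. In L3/C UCP1 ran from -0.084 to 0.30, UCP3 207349_s_at from -0.56 to 0.24, UCP3 219827_at from -0.13 to 0.59, SLC25A27 1552774_a_at from -0.86 to 0.11, SLC25A27 1554161_at from -0.074 to 0.26, SLC25A27 229361_at from -0.32 to 0.12, SLC25A27 231787_at from -0.18 to 0.33, SLC25A4 202825_at from -0.24 to 0.064 and SLC25A4 214821_at from -0.10 to 0.37.

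Nothing in the labels says that a replicate number pairs arrays across formulas, so the arrays were not treated as paired. The correlation of deviations ran from -0.09 to 0.33 over the 12 same-numbered pairs, against -0.32 to 0.27 for other pairs. Of the same-numbered pairs 6 were over 0.1. These 6 are all the pairs of replicates 1 and of replicates 4. In every formula the ACTB 3′/5′ ratio fell from replicate 1 through 2 and 3 to replicate 4. The number therefore runs with this measure of RNA quality in all 3 formulas, and a shared batch was not tested. With the replicate block the member count stayed at 0 in L/C and L3/C and went to 1 in L3/L (UCP2 208997_s_at at -1.21, limma unadjusted p = 0.0473, adjusted p = 0.713). With the block, 3826 of all probe sets had an unadjusted p under 0.05 in L3/L, against 2949 without it. The median SE over all probe sets was 0.51 on the log2 scale, which limits what 4 arrays per formula can show.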

Other observations

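Markers of the other cell types of cortex gave these values. Among all probe sets an unadjusted p under 0.05 was found for 2.42% in L/C and 4.26% in L3/C. Of 10 neuronal markers 0 reached an unadjusted p under 0.05 in L/C or L3/C by limma, with the neurofilaments NEFL at 0.45 (SE 0.22) and NEFM at 0.30 (SE 0.22) in L/C and RBFOX3 at -0.32 (SE 0.20) and SYT1 at -0.18 (SE 0.17) in L3/C. Of 8 astrocyte markers 0 did in L/C, with ALDH1L1 at -0.62 (SE 0.34) and GFAP at -0.39 (SE 0.31). In L3/C 1 did, the water channel AQP4, at 0.63 (SE 0.26, limma unadjusted p = 0.0272), and the glutamate transporter SLC1A2 was at 0.40 (SE 0.20). Of 8 oligodendrocyte markers 7 were measured and 0 did, with MOG at -0.35 (SE 0.42) and OPALIN at 0.07 (SE 0.34) in L/C and CNP at -0.54 (SE 0.34) and MYRF at 0.58 (SE 0.41) in L3/C. Of 7 endothelial markers 0 did, with the glucose transporter SLC2A1 at 0.32 (SE 0.24) and PECAM1 at -0.26 (SE 0.33) in L/C and SLC2A1 at 0.39 (SE 0.24) and FLT1 at 0.49 (SE 0.35) in L3/C.

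All 7 meningeal and fibroblast markers were above 0 in L3/C, with a median of 0.84, and 1 had an unadjusted p under 0.05, the proteoglycan DCN, at 0.93 (SE 0.41, limma unadjusted p = 0.0363). Over all probe sets 49.9% were above 0 in L3/C, and 2.22% had an unadjusted p under 0.05 in the higher direction. COL1A2 was at 0.84 (SE 0.40). The mean log2 value of this list ran from 8.62 to 9.53 on C, 8.77 to 10.00 on L and 9.16 to 10.85 on L3. Its summed signal was 19277 in L3 replicate 2, against 5542, 8057 and 5913 in L3 replicates 1, 3 and 4. The L3/C median of the list was 0.66 without further normalization and 0.49 with centring. In L/C DCN was at 0.83 (SE 0.41) and COL1A2 at 0.60 (SE 0.40). Of 7 blood markers 5 were measured, and the globin HBB was at 0.58 in L3/C (SE 0.24, limma unadjusted p = 0.0317), with SLC4A1 at 0.60 (SE 0.59). In L/C ALAS2 was at -0.52 (SE 0.44) and SLC4A1 at 0.39 (SE 0.59). None of these had an adjusted p under 0.05.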
